A study of Mus musculus with 3 samples.

Results

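The basement membrane is the sheet of matrix on which the epiblast rests, and the data describe the genes that build it and the receptors that bind it in 3 libraries of E6.5 mouse embryos. The genes were chosen by symbol, as all integrin alpha and beta subunits, all laminin chains, and *Nid1*, *Nid2*, *Hspg2*, *Agrn* and *Dag1*. The table of 23421 genes held 42 of them, comprising 18 integrin alpha genes, 8 integrin beta genes, 11 laminin genes and the 5 others. The libraries were 1 of wild type, 1 of *tw18*/+ and 1 of *tw18*/*tw18*, and the labels give the strain as 129/SvEv. The study names matings between *tw18*/+ mice as the source of its embryos for in situ hybridization. It also proposes that genetic backgrounds that were not inbred and differed between embryos might underlie the variable phenotype. The *tw18* chromosome is a *t* haplotype with a deletion on Chr 17 that removes *Ppp2r1a*, the scaffolding subunit of protein phosphatase 2A, so the heterozygotes also carry 1 deleted copy. The labels name the tissue as epiblast, while the study's methods state that the embryo proper, that is epiblast with its surrounding visceral endoderm, was taken and the extra-embryonic part was used for genotyping. How many embryos went into a library is not given in the sources used here. The study describes homozygous embryos collected at E6.5 for in situ hybridization as slightly younger in stage. Stage and genotype therefore cannot be told apart in these libraries. With 1 library per genotype no difference has a replicate check, and no p-value is given.

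Laminins are trimers of an alpha, a beta and a gamma chain that assemble into a network under epithelia. Nidogens and the heparan sulfate proteoglycans perlecan (*Hspg2*) and agrin (*Agrn*) join this network to that of collagen IV. Cells hold on to it through integrins, which are dimers of an alpha and a beta subunit, and through dystroglycan (*Dag1*). In the early mouse embryo laminin lies under the epiblast and in Reichert's membrane, the thick sheet that the parietal endoderm secretes, and the breakdown of the basement membrane at the primitive streak accompanies the exit of mesoderm cells.

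The deposited values are FPKM, the fragments of a gene divided by its exon length and by the size of the library, which allow genes of different length to be compared within a library. *Ppp2r1a* stood at an FPKM of 146 in wild type, 81.7 in *tw18*/+ and 12.8 in *tw18*/*tw18*. The value in *tw18*/*tw18* was the lowest but not 0, at 8.72% of wild type, although the deletion removes the gene. The library labelled *tw18*/*tw18* thus held reads assigned to it, and their source was not tested. Low values fall on steps of 1 fragment each, which placed the depth of *tw18*/+ at 1.44 times and that of *tw18*/*tw18* at 1.40 times wild type. Fragment numbers below rest on this estimate and on the longest annotated transcript, are approximate, and give 95% intervals that cover counting error only. *Lars2* reached 11199 in wild type and 9689 in *tw18*/+, and was listed at 0 in *tw18*/*tw18*, and the FPKM values of *tw18*/*tw18* summed to 0.863 of those of wild type. Under equal sums of FPKM, log2 ratios against wild type move by 0.21 for *tw18*/*tw18* and by -0.035 for *tw18*/+. In RNA from a dissected tissue, fewer cells of a type and less RNA per cell cannot be told apart.

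The members lie on many chromosomes, and *Lama1* (67697259 to 67822647, GRCm38) was the 1 member on Chr 17, distal to *Ppp2r1a* (20945311 to 20965916). Several are neighbors. On Chr 13 the gap between *Itga2* and *Itga1*, which encode collagen-binding integrin subunits, is 21.0 kb. On Chr 7 *Itgam*, *Itgax* and *Itgad* follow each other within 11.1 kb and 3.72 kb. To show start regions of members past the threshold used below, RefSeq promoter windows (GRCm38.p6, reaching from upstream of the start into the gene) are printed for *Lamb2* and *Nid1*, abundant matrix genes that were higher in *tw18*/*tw18*, and for the neighbors *Itga1* and *Itga2*, which differed in opposite directions. RefSeq windows were found for 27 of the 42 members, and no window was found for *Lama1* or *Lamc1*. Capitals mark the letters GGGCGG or their reverse complement CCGCCC, the GC box. The windows are *Lamb2* at chr9:108479612-108479911 on the plus strand, *Nid1* at chr13:13437352-13437651 on the plus strand, *Itga1* at chr13:115101915-115102214 on the minus strand and *Itga2* at chr13:114932051-114932350 on the minus strand.
Lamb2: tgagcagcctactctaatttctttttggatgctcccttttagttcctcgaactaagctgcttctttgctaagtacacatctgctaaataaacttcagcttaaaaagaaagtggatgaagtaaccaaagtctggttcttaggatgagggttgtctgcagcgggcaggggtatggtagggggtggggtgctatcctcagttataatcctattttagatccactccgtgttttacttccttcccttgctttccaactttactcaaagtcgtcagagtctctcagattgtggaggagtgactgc
Nid1: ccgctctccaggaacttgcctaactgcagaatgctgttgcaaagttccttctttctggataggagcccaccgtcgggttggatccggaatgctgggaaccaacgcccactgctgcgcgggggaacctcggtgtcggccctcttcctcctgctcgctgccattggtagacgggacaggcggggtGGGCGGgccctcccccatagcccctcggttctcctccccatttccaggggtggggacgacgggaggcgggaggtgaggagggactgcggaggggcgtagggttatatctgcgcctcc
Itga1: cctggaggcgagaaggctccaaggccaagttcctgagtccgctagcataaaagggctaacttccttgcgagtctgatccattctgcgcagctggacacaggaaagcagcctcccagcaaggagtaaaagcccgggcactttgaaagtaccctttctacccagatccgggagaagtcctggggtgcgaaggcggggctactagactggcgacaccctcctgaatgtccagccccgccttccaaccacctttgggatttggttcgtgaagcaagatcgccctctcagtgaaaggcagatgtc
Itga2: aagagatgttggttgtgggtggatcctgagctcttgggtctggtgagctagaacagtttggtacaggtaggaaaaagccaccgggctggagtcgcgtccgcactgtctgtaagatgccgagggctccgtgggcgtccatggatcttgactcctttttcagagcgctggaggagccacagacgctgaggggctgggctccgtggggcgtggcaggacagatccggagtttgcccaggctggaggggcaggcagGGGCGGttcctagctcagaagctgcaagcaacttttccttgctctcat

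Read on both strands, GGGCGG occurred in 18 of the 32 member windows and in 35.7% of all 32851 promoter windows of the same length. The 32 windows come from 27 genes, so some genes count more than once, and the windows of *Dag1* overlap. *Nid1* and *Itga2* each held 1 match, and *Lamb2* and *Itga1* held 0. A match is a run of letters and not a shown binding site. The letters TATAAA occurred in 0 of the 32 member windows against 13.6% of all windows, CACGTG in 0 against 7.15%, and AGATAA in 1, that of *Itgax*, against 11.2%. The median GC content was 59.3% in the member windows and 52.7% in all windows. The *Lamb2* window had a GC content of 44%, the *Itga1* window 56.7%, the *Itga2* window 59.3% and the *Nid1* window 64.7%.

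An FPKM of at least 1 in any library was reached by 26 of the 42 members, and the other 16 stayed under 1 in all 3. Between *tw18*/*tw18* and wild type, 12 of these 26 were higher in *tw18*/*tw18* by at least 1 log2 unit and 2 were lower. Of the 12917 genes of the whole table that passed the same filter, 15.1% were higher and 6.94% lower. The filter lets a gene in through the library where it is high, so the count describes the members and is not support for a change. With genes filtered by a mean FPKM of at least 1 over the 3 libraries instead, a filter chosen after seeing the data, 12 of 25 members were higher and 1 lower, against 12.3% and 5.75% of all genes. Over all 42 members with no filter, 21 were higher and 4 lower, against 24.2% and 10.8% of all genes. The median log2 ratio was 0.92 over the 26 members and -0.016 over all genes. Closest to the threshold, *Itgb3* lay just above it with a log2 ratio of 1.06 and *Lamb1* just below it with 0.97. With a pseudocount of 1, *Itgb3* (0.84), *Itga9* (0.82), *Lama4* (0.68), *Itga4* (0.68) and *Itga2* (-0.90) were no longer past the threshold, which left 8 members higher and 1 lower.

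**Figure D1:**
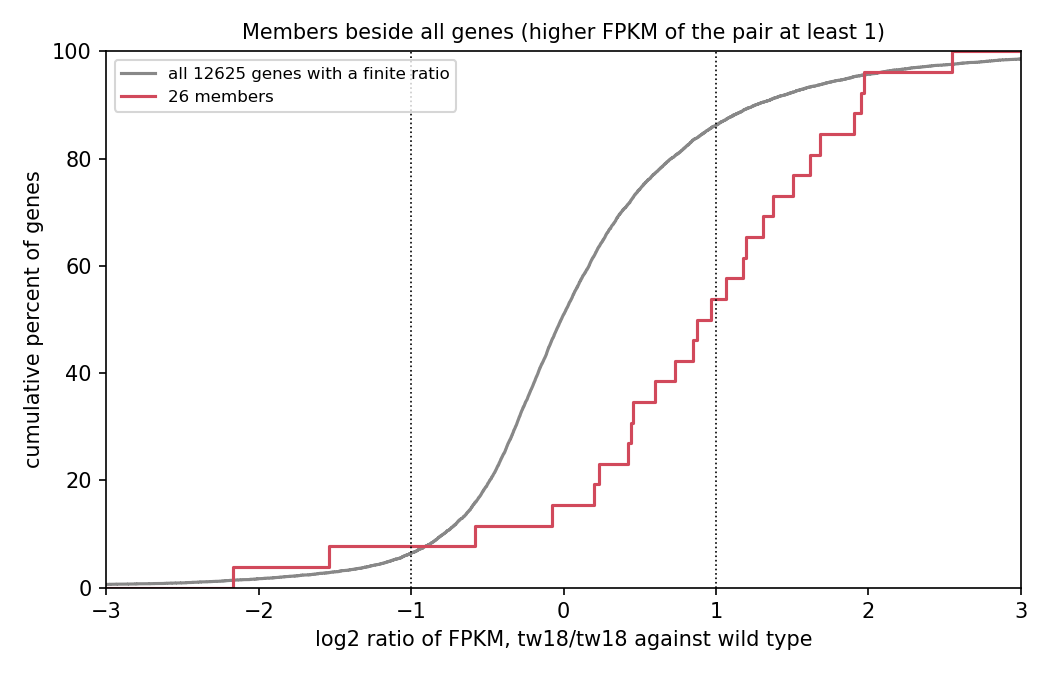
Cumulative percent of genes (y axis) by the log2 ratio of FPKM in *tw18*/*tw18* against wild type (x axis), for the 26 members and for the 12625 genes that passed the filter and had a value above 0 in both libraries. The members' curve lies to the right of that of all genes through the middle of the range, with medians of 0.92 and -0.016, and both dotted lines mark a log2 ratio of 1 in size.

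The 25 members with a mean FPKM of at least 1 were mostly highest in the homozygote. In 22 of them *tw18*/*tw18* had the highest of the 3 values, against 39.9% of all genes, and in 1, *Itga6*, it had the lowest, against 42.5% of all genes. The mean takes in the *tw18*/*tw18* value, so a low gene can pass through it alone, as *Itga8* did with 0.589, 0.628 and 2.21. These counts therefore describe the members and are not support for a change. The values of 13 members followed the order wild type, *tw18*/+, *tw18*/*tw18*, against 20.4% of all genes. These were *Agrn*, *Hspg2*, *Itga1*, *Itga3*, *Itga4*, *Itga7*, *Itga8*, *Itga9*, *Itgb1*, *Lama1*, *Lamb1*, *Lamc1* and *Nid1*. For *Itga3*, *Itga4*, *Itga8* and *Itgb1* the counting interval of *tw18*/+ against wild type took in both signs, such as -0.073 to 0.084 for *Itgb1*. Under equal sums of FPKM, *Itga3* and *Itgb1* left this order.

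**Figure D2:**
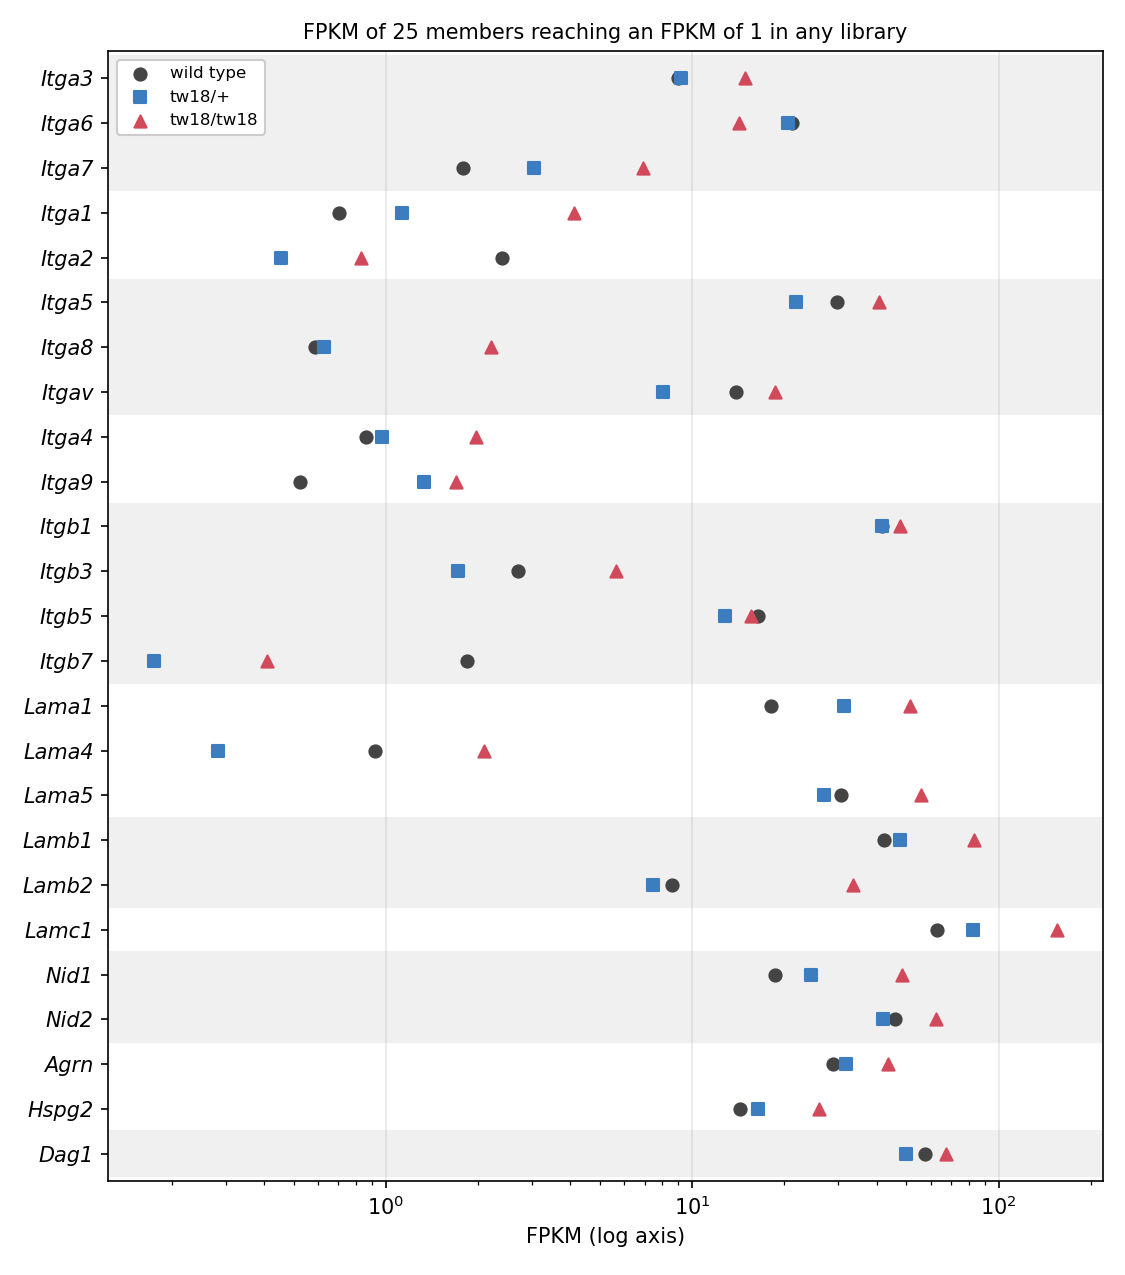
FPKM (x axis, log scale) of 25 members that reached 1 in any library, 1 point per library, with members grouped by role in alternating shades. The triangles of *tw18*/*tw18* lie to the right of the other symbols for most members, and to the left for *Itga6*, which was at an FPKM of 14.2 against 21.2 in wild type.

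Among the laminin alpha chains, *Lama1*, the chain of the early embryonic laminin, stood at an FPKM of 18.1 in wild type, 31.4 in *tw18*/+ and 51.5 in *tw18*/*tw18*. The 3 values followed the order wild type, *tw18*/+, *tw18*/*tw18*, as did 20.4% of all genes with a mean FPKM of at least 1. The log2 ratios against wild type were 0.79 in *tw18*/+ and 1.51 (interval 1.44 to 1.57) in *tw18*/*tw18*. *Lama5*, the alpha chain of most epithelial basement membranes, stood at 30.6, 27.0 and 56.0. Here *tw18*/+ lay below wild type, and the log2 ratio of *tw18*/*tw18* was 0.87 against wild type, under the threshold of 1, and 1.05 against *tw18*/+. After rescaling to equal sums the former was 1.08. *Lama4*, found in vessel and muscle laminins, was low, with an FPKM of 0.922, 0.283 and 2.09, from about 80, 35 and 252 fragments. Its log2 ratio in *tw18*/*tw18* was 1.18 and that in *tw18*/+ was -1.70. *Lama2*, the muscle chain, and *Lama3*, the chain of stratified epithelia, stayed under an FPKM of 1. *Lama2* had 0.0895, 0.294 and 0.864, from about 12, 59 and 168 fragments, while *Lama3* was listed at 0 in wild type, with 0.130 in *tw18*/+ and 0.721 in *tw18*/*tw18*. Both were highest in *tw18*/*tw18*.

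Together *Lama1* and *Lama5* made up nearly the whole of the alpha chains, and their balance differed between libraries. *Lama5* accounted for 61.5% of the summed laminin alpha FPKM in wild type, 45.7% in *tw18*/+ and 50.4% in *tw18*/*tw18*. *Lama1* accounted for 36.4%, 53.1% and 46.3%. The ratio of *Lama1* to *Lama5* was 0.593 in wild type, 1.16 in *tw18*/+ and 0.920 in *tw18*/*tw18*, so that the heterozygote did not lie between the other libraries. These shares do not depend on how the libraries are scaled.

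Of the laminin beta chains, *Lamb1*, the partner of both main alpha chains, stood at an FPKM of 42.4 in wild type, 47.6 in *tw18*/+ and 83.0 in *tw18*/*tw18*, a log2 ratio of 0.97 (0.91 to 1.03) that was 1.02 with the libraries centered on the median log2 ratio. *Lamb2*, which replaces it in muscle, vessel and kidney basement membranes, was at an FPKM of 8.56, 7.46 and 33.5. Wild type and *tw18*/+ lay close together, and *tw18*/*tw18* was 3.92 times wild type, a log2 ratio of 1.97 (1.85 to 2.09) from about 687 and 3767 fragments. *Lamb2* took 16.7% of the summed beta chain FPKM in wild type, 13.5% in *tw18*/+ and 28.6% in *tw18*/*tw18*. *Lamb3*, a chain of skin laminin, was at an FPKM of 0.252, 0.103 and 0.623.

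*Lamc1*, the gamma chain of nearly all embryonic laminin, was the most abundant member in each library. Its FPKM was 62.9 in wild type, 82.5 in *tw18*/+ and 156 in *tw18*/*tw18*, ranks of 1159, 871 and 345 among all genes. The log2 ratio was 0.39 in *tw18*/+ and 1.31 (1.27 to 1.34) in *tw18*/*tw18*. *Lamc3* was at most 0.0122, about 1 fragment.

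Summed over the chains of each class, laminin alpha stood at an FPKM of 49.8 in wild type, 59.0 in *tw18*/+ and 111 in *tw18*/*tw18*. Laminin beta had 51.2, 55.2 and 117, and laminin gamma 64.4, 83.6 and 159.9. The 3 classes were thus 2.24, 2.29 and 2.48 times wild type in *tw18*/*tw18*, while their proportions to each other varied less. The beta sum was 1.03 times the alpha sum in wild type, 0.935 times in *tw18*/+ and 1.05 times in *tw18*/*tw18*, and the gamma sum was 1.29, 1.42 and 1.44 times the alpha sum.

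**Figure D3:**
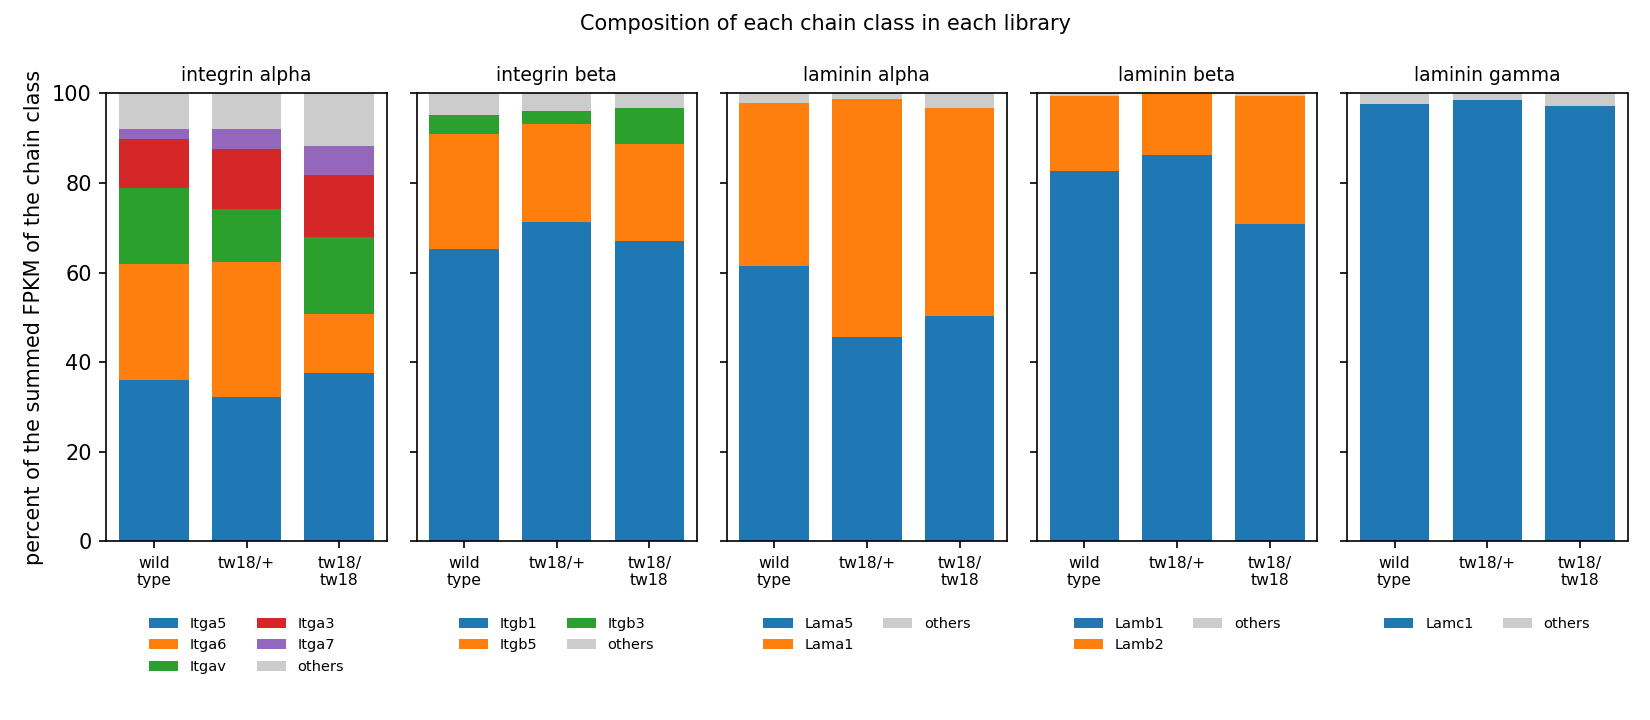
Percent of the summed FPKM of each chain class (y axis) by library, with 1 stacked bar per library and chains under 4% in all libraries pooled in gray. *Lamb2* was 16.7% of the beta chains in wild type and 28.6% in *tw18*/*tw18*, *Itga6* was 25.9% and 13.1% of the integrin alpha subunits, and *Lamc1* held at least 97.2% of the gamma chains in each library.

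*Nid1*, which encodes the nidogen that bridges the laminin gamma chain to collagen IV, stood at an FPKM of 18.6 in wild type, 24.3 in *tw18*/+ and 48.3 in *tw18*/*tw18*, log2 ratios of 0.38 and 1.37 (1.29 to 1.45). Its level relative to *Lamc1* was 0.296 in wild type, 0.295 in *tw18*/+ and 0.311 in *tw18*/*tw18*. *Nid2*, its paralog, stood at 45.9, 41.8 and 62.5, with a log2 ratio of 0.44 in *tw18*/*tw18*, and shares 8.45% of its exon bases with *Rtraf* on the other strand. The ratio of *Nid1* to *Nid2* was accordingly 0.406, 0.582 and 0.774. *Hspg2*, which encodes perlecan, was at an FPKM of 14.4, 16.4 and 25.9, which gives a log2 ratio of 0.85 in *tw18*/*tw18* that was 1.06 after rescaling to equal sums. *Agrn*, which encodes agrin, had 28.8, 31.9 and 43.5, a log2 ratio of 0.60. None of *Nid2*, *Hspg2* and *Agrn* reached a log2 ratio of 1 on the deposited scale.

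The libraries also differed in markers of other cell types. By the rule used above, 15.1% of all genes were higher and 6.94% lower in *tw18*/*tw18* than in wild type. Parietal endoderm, the source of Reichert's membrane, was represented by 10 genes that are not members, of which 5 were higher by at least 1 log2 unit and 0 lower in *tw18*/*tw18*. Their summed FPKM was 192 in wild type, 237 in *tw18*/+ and 493 in *tw18*/*tw18*, and 0 of the 10 were listed at 0. Among them, *Stra6* was at an FPKM of 8.16, 12.9 and 59.0, *Pdgfra* 7.18, 9.62 and 31.6, and *Srgn* 85.9, 133 and 265. Of the 10, 6 followed the order wild type, *tw18*/+, *tw18*/*tw18*, against 20.4% of all genes with a mean FPKM of at least 1. That order was also met by 8 of 15 decidual and stromal, 5 of 11 endothelial and 4 of 8 smooth muscle markers. It was met by 3 of 13 visceral endoderm and 0 of 12 epiblast markers. The other parietal endoderm genes did not follow it, such as *Fst* with 37.3, 30.2 and 53.5. *Sox7* had 9.16, 8.78 and 10.2, and *Snai1* had 21.6, 13.8 and 17.3. *Snai1* is also counted among the primitive streak mesoderm markers given at the end. The 13 visceral endoderm markers summed to 1097, 1083 and 1501, with 0 higher and 0 lower by a log2 ratio of 1. The 15 decidual and stromal markers had 13 higher and 1, *Prl8a2*, lower. Their sum without *Prl8a2* was 216 in wild type, 193 in *tw18*/+ and 819 in *tw18*/*tw18*. *Prl8a2*, a decidual prolactin, had 1504, 155 and 377. The 11 endothelial markers had 6 higher and summed to 61.3, 48.8 and 119. Of the 8 smooth muscle markers 7 could be compared, with 4 higher and 2 lower, and the 8 summed to 77.0, 93.0 and 248, *Des* being the most abundant of them. The 11 extra-embryonic ectoderm markers had 6 higher and summed to 149, 148 and 257. Of the 8 trophoblast giant cell markers 6 could be compared, with 3 higher and 2 lower, and the 8 summed to 130, 81.3 and 244, with *Prl3b1* and *Ctsq* at 0 in all 3. The 12 epiblast markers summed to 2575, 2738 and 1408, with 5 lower. *Ppp2r1a* was not at 0 in the same *tw18*/*tw18* library. The part of these cell types in the values of the members was not tested.

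**Figure D4:**
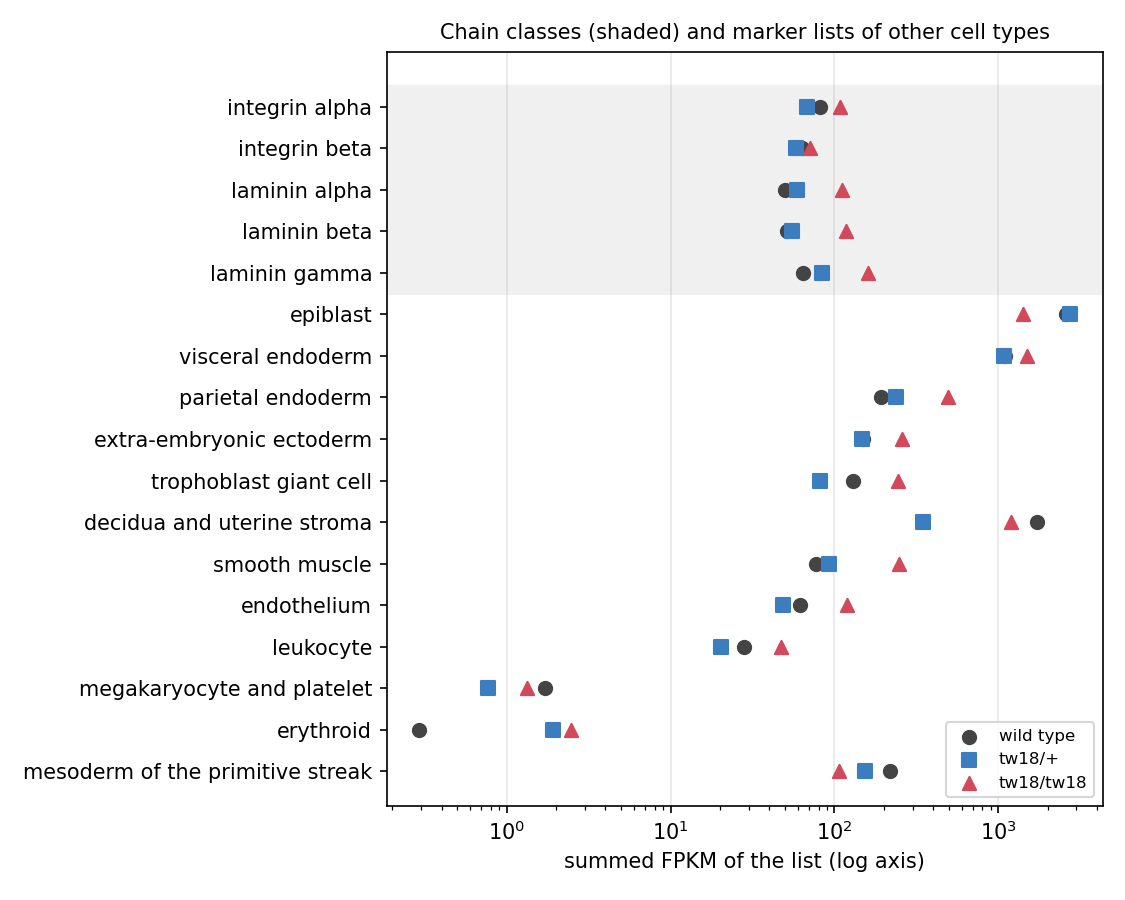
Summed FPKM (x axis, log scale) of the integrin and laminin chain classes (shaded) and of the marker lists, 1 point per library. In *tw18*/*tw18* the laminin and integrin sums and those of most marker lists were the highest of the 3 libraries. The epiblast sum, 1408 against 2575 in wild type, and the sum of primitive streak mesoderm were the lowest. The decidual and stromal sum, here with *Prl8a2* included, was highest in wild type, at 1720 against 1197 in *tw18*/*tw18*. The megakaryocyte and platelet sum was also highest in wild type.

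Among the laminin-binding integrin alpha subunits, *Itga6* stood at an FPKM of 21.2 in wild type, 20.6 in *tw18*/+ and 14.2 in *tw18*/*tw18*. The log2 ratio of *tw18*/+ was -0.05, and *tw18*/*tw18* was the lowest library, with -0.58 (-0.70 to -0.47) that was -0.37 after rescaling to equal sums. *Itga6* took 25.9% of the summed integrin alpha FPKM in wild type, 30.2% in *tw18*/+ and 13.1% in *tw18*/*tw18*. The summed epiblast markers were lower in the same library, and their part in the value of *Itga6* was not tested. *Itga3*, whose product binds laminin with the *Lama5* chain, was at an FPKM of 8.98, 9.19 and 14.9, which gives a log2 ratio of 0.73. *Itga7*, a subunit known from muscle, had 1.78, 3.06 and 6.89, from about 101, 249 and 547 fragments, which gives a log2 ratio of 1.95. The summed FPKM of the 3 laminin-binding subunits was therefore 32.0, 32.8 and 36.0, a log2 ratio of 0.17 in *tw18*/*tw18*, while that of the laminin alpha chains was 1.16.

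The RGD-binding subunits recognize fibronectin, vitronectin and related ligands. *Itga5*, the fibronectin receptor subunit, was the most abundant integrin alpha gene in each library, with an FPKM of 29.6 in wild type, 21.9 in *tw18*/+ and 40.7 in *tw18*/*tw18*. Its log2 ratio was -0.44 in *tw18*/+ and 0.46 in *tw18*/*tw18*. *Itgav*, the subunit shared by the vitronectin receptors, had 13.9, 8.03 and 18.7, log2 ratios of -0.79 and 0.42. Both genes had their lowest value in *tw18*/+, and *Itgav* was higher in *tw18*/*tw18* than in *tw18*/+ by a log2 ratio of 1.22. *Itga8*, a nephronectin receptor subunit, had 0.589, 0.628 and 2.21, from about 49, 75 and 257 fragments, which gives a log2 ratio of 1.91 in *tw18*/*tw18*. *Itga2b*, the platelet subunit, was listed at 0 in wild type and *tw18*/+ and had 0.167 in *tw18*/*tw18*, about 11 fragments. Of the 8 megakaryocyte and platelet markers 5 were at 0 in all 3 libraries, among them *Pf4*, *Ppbp*, *Gp9* and *Treml1*. The 8 summed to 1.72, 0.765 and 1.33, mostly from *Gp1bb* with 0.643, 0.727 and 0.970 and *Gp6* with 0.943, 0 and 0.362.

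The ratio of *Itga6* to *Itga5* was 0.717 in wild type, 0.940 in *tw18*/+ and 0.349 in *tw18*/*tw18*. Against *Itgb1*, the common beta partner of both, *Itga6* stood at 0.511, 0.492 and 0.298 and *Itga5* at 0.712, 0.524 and 0.854. These ratios are within a library and do not depend on its scaling.

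Of the collagen-binding subunits, the neighbors *Itga1* and *Itga2* differed from wild type in opposite directions in *tw18*/*tw18*. *Itga1* stood at an FPKM of 0.702 in wild type, 1.13 in *tw18*/+ and 4.11 in *tw18*/*tw18*, from about 111, 257 and 913 fragments. This log2 ratio of 2.55 (2.27 to 2.85) was the largest among the 26 members. *Itga2* had 2.40, 0.455 and 0.828, from about 245, 67 and 118 fragments, log2 ratios of -2.40 in *tw18*/+ and -1.54 in *tw18*/*tw18*. Its high value was in wild type alone, and against *tw18*/+ the log2 ratio of *tw18*/*tw18* was 0.86. *Itga10* reached at most 0.216 and *Itga11* at most 0.0587. *Itga4* and *Itga9*, related subunits that bind VCAM1, fibronectin and other ligands, were low in each library. *Itga4* had 0.862, 0.971 and 1.97, a log2 ratio of 1.20 (0.90 to 1.51), with 8.04% of its exon bases shared with *Cerkl* on the other strand. *Itga9* had 0.527, 1.33 and 1.69, log2 ratios of 1.34 in *tw18*/+ and 1.68 in *tw18*/*tw18*, so that *tw18*/+ lay close to *tw18*/*tw18*.

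The leukocyte subunits *Itgad*, *Itgae*, *Itgal*, *Itgam* and *Itgax* stayed under an FPKM of 1 in each library, and so did *Itgb2*, the partner of all of them but *Itgae*, with 0.582, 0.834 and 0.528. *Itgal* had 0.180, 0.437 and 0.769. *Itgam* had 0.727, 0.0332 and 0.613, about 48, 3 and 57 fragments, and 68.7% of its exon bases are shared on the same strand with the annotated gene *Gm49368*, so its value is uncertain. Of the 13 leukocyte markers 8 could be compared, with 3 higher and 1 lower in *tw18*/*tw18*, against 15.1% and 6.94% of all genes. The 13 summed to 28.1, 20.3 and 47.1. *Itgb7*, the other leukocyte beta subunit, had 1.84, 0.175 and 0.410, from about 68, 9 and 21 fragments. Like *Itga2*, it was high in wild type alone, with log2 ratios of -3.40 in *tw18*/+ and -2.17 in *tw18*/*tw18*.

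*Itgb1*, the beta subunit of most matrix receptors, stood at an FPKM of 41.6 in wild type, 41.8 in *tw18*/+ and 47.7 in *tw18*/*tw18*. Its log2 ratio of 0.20 (0.12 to 0.27) in *tw18*/*tw18* was small beside those of the laminin chains, and it made up 65.2%, 71.3% and 67.0% of the summed integrin beta FPKM. *Itgb5*, a partner of *Itgav*, had 16.4, 12.8 and 15.6, a log2 ratio of -0.078 in *tw18*/*tw18* that became 0.13 after rescaling to equal sums. *Itgb3*, the partner of *Itgav* and *Itga2b*, had 2.69, 1.72 and 5.63, from about 222, 204 and 651 fragments, which gives a log2 ratio of 1.06 (0.84 to 1.29). *Itgb4*, the hemidesmosome subunit, had 0.446, 0.295 and 0.659, and *Itgb6* reached at most 0.196. *Itgb8* had 0.187, 0.838 and 0.539, the highest value being in *tw18*/+, from about 146 fragments. *Dag1*, the dystroglycan gene, was abundant in each library with 57.5, 50.1 and 67.6, a log2 ratio of 0.23 in *tw18*/*tw18*. The sum of the integrin alpha genes was 82.0, 68.0 and 108, and that of the beta genes 63.8, 58.5 and 71.2, so that both were lowest in *tw18*/+. In *tw18*/*tw18* they were 1.32 and 1.12 times wild type.

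**Figure D5:**
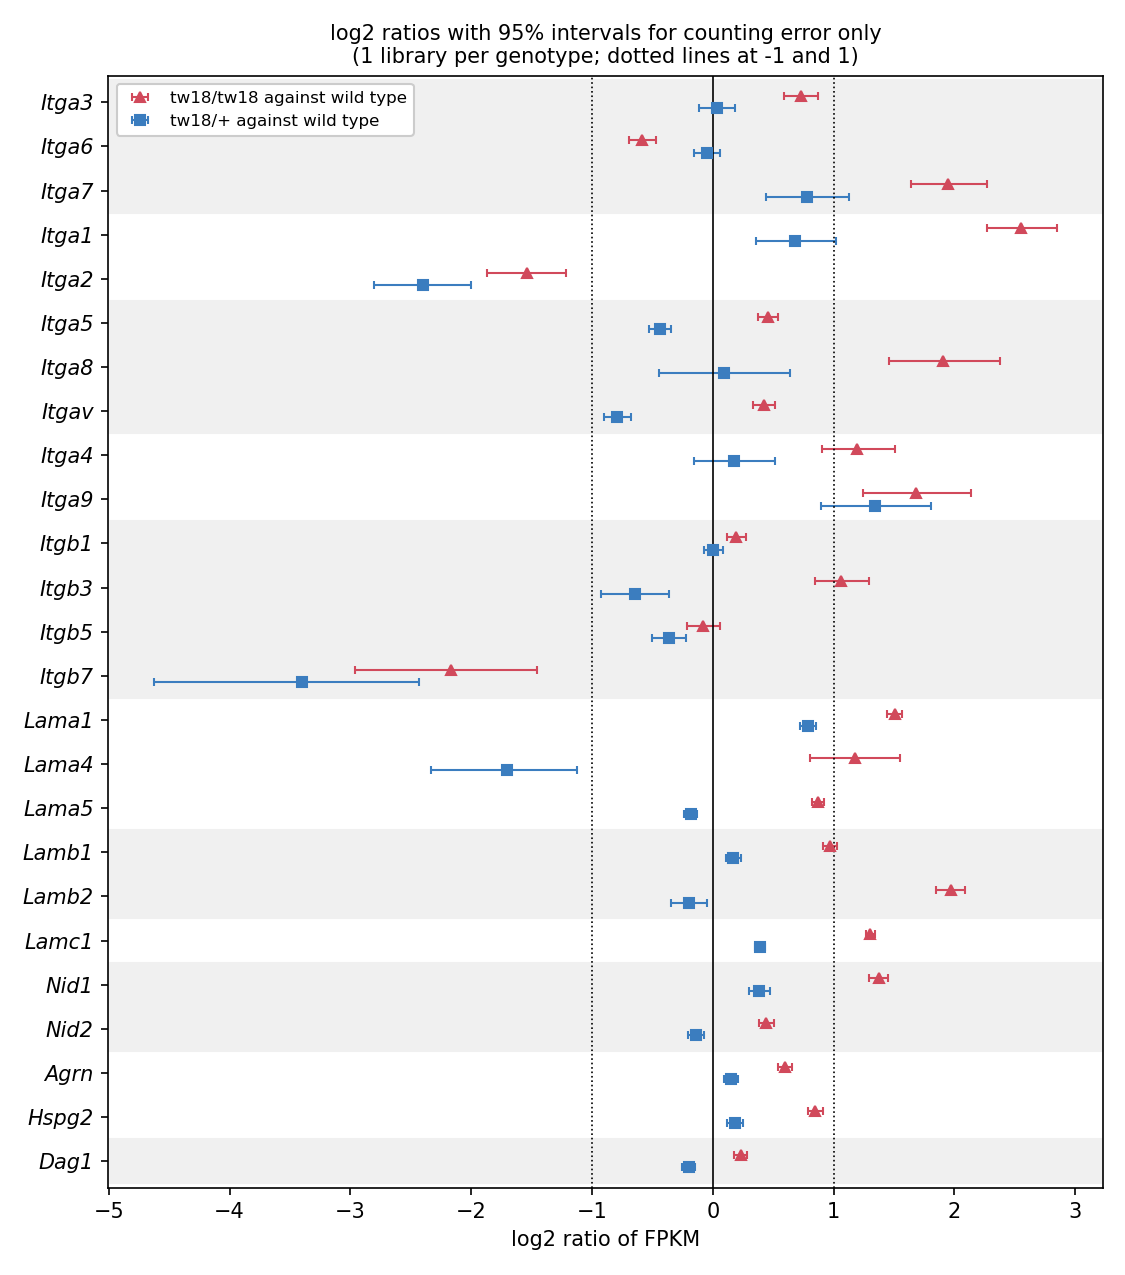
Log2 ratio of FPKM against wild type (x axis) of 25 members that reached an FPKM of 1 in any library, for *tw18*/*tw18* (triangles) and *tw18*/+ (squares), with 95% intervals for counting error only and dotted lines at a log2 ratio of 1 in size. The laminin and nidogen triangles lie between 0.44 and 1.97, while *Itgb1* lies at 0.20 and *Itga6* at -0.58, and *Itga2* and *Itgb7* lie below -1 in both genotypes.

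Between *tw18*/+ and wild type, 1 of 23 members, *Itga9*, was higher by at least 1 log2 unit and 2, *Itga2* and *Itgb7*, were lower, against 4.7% and 5.02% of all genes. The median log2 ratio was -0.048 over these members. The shares are near those of all genes. Among the abundant members the largest log2 ratios were those of *Lama1* (0.79) and *Itgav* (-0.79). For *Itga3* (0.033) and *Itgb1* (0.0051) the sign turned after rescaling to equal sums.

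Between *tw18*/*tw18* and *tw18*/+, 10 of 24 members were higher by at least 1 log2 unit and 0 were lower, against 14.9% and 5.65% of all genes. No test could be run on this count of 0, and without a filter on low values it was 2. They included *Itga1*, *Itga4*, *Itga7*, *Itga8*, *Itgav*, *Itgb3*, *Lama4*, *Lama5* and *Lamb2*. This comparison and that with wild type share the *tw18*/*tw18* library. *Lama1* (0.72), *Lamc1* (0.92) and *Nid1* (0.99) were past the threshold against wild type and under it against *tw18*/+. *Lamb2* had the largest log2 ratio of the members with an FPKM of at least 10, with 2.17 (2.06 to 2.28).

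Many of the members have long transcripts. Of the 26 members, 18 had a longest annotated transcript of at least 5000 bp, and 11 of these were higher in *tw18*/*tw18* than in wild type by at least 1 log2 unit and 1 was lower. Of the 8 shorter members 1 was higher and 1 lower. The median log2 ratio was 1.19 over the long members and 0.32 over the shorter ones. Of all 2701 genes of that length, 13.3% were higher, and of the 9501 shorter genes 15.7%. The median log2 ratio of all long genes was 0.084 and that of the shorter ones -0.047.

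Among the other basement-membrane genes, 8 of the 14 that could be compared were higher in *tw18*/*tw18* than in wild type and 0 were lower, with the background of all genes as above. *Col4a1*, a collagen IV chain, stood at an FPKM of 86.8 in wild type, 94.0 in *tw18*/+ and 174 in *tw18*/*tw18*, and its partner *Col4a2* had 38.6, 40.7 and 78.2. In *tw18*/*tw18* their log2 ratios, 1.003 and 1.018, lay just above the threshold, and with a pseudocount of 1 the count of 8 became 6. *Sparc*, a collagen-binding matrix protein, was the most abundant of the list with 136, 160 and 358. These 3 genes were highest in *tw18*/*tw18* and followed the order of the genotypes. *Col18a1*, the collagen of epithelial basement membranes that carries endostatin, had 53.2, 49.6 and 44.1 instead. Of the other matrix ligands of integrins, 6 of 11 were higher and 0 lower. *Fn1*, which encodes fibronectin, was the most abundant of them and had 39.2, 30.4 and 43.7, a log2 ratio of 0.16 in *tw18*/*tw18*. Of the integrin adaptors and activators, 5 of 25 were higher and 0 lower, a share of higher genes near the 15.1% of all genes. After rescaling to equal sums 10 were higher, and the share of all genes under that scaling is not given here. *Actn4*, the most abundant, had 114, 124 and 137, and *Tln1*, which encodes the activator talin, had 13.6, 13.9 and 25.9.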

How the data were processed

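RNA of E6.5 embryos was measured in 3 libraries, 1 per genotype, grouped by the genotype in their labels. The authors made strand-specific total RNA libraries, aligned the read pairs with TopHat to GRCm38 (mm10), calculated FPKM values with Cuffdiff and deposited these FPKM. The submitters' processing notes name Cufflinks 2.2.1 and Bowtie 1.0.0. The gene annotation, the library normalization and the strand setting are not given in the sources used here.

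From the deposited FPKM, log2 ratios were computed without a pseudocount in Python 3.11.15 (pandas 2.3.3, scipy 1.17.1, numpy 2.4.6). A gene counted as higher or lower when the higher FPKM of the pair was at least 1 and the log2 ratio at least 1 in size, a gene at 0 counting where the other value was at least 1. The code for the calls was run on a simulated table with known fold changes well past the threshold and little noise. This checks the code and says nothing on how reliable the calls are in these libraries. Depth came from genes with 1 annotated transcript (115 to 187 low values per library under 4.5 fragments, 80.7% to 83.5% of them within 0.2 of a whole number, allowing 150 bp for the fragment length). Intervals are exact binomial ones (95%) on the estimated fragments. Each fragment is treated as independent. No step here removed copies made by PCR, and such copies would make the intervals too narrow. Positions and transcript lengths came from GENCODE M21 for all 42 members.

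The values in all 3 libraries are given for each member with an FPKM of at least 1 in any library, except for 1 that is not reported here but is in the counts, sums and medians, and the lower ones mostly by range. Genes of the related and marker lists are named when most abundant in *tw18*/*tw18* or where a result turns on them. A few others are named after seeing their values. The members and lists were chosen with earlier results of these data known. The alternatives were pseudocounts of 0.1 and 1, 2 scalings, other filters, a log2 threshold of 2 and *tw18*/+ as the reference.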

Additional observations from a re-analysis of the deposited data

How the results depend on the processing

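With 1 library per genotype, no library could be left out and no spread between replicates was measured. No paired analysis was possible because each genotype had 1 library and the labels carry no replicate numbers. Of the members, 12 were higher and 2 lower in *tw18*/*tw18* than in wild type. Without a filter on low values these counts were 21 and 4, with an FPKM of at least 5 in the pair 6 and 0, and with a log2 threshold of 2 they were 1 and 1. With a pseudocount of 1 they were 8 and 1, and with equal sums 15 and 2. The lower count was 1 with the filter on the mean FPKM, chosen after seeing the data. Against *tw18*/+ the counts of 10 and 0 became 20 and 2 without a filter, and the higher count was 5 with an FPKM of at least 5, 2 with the stricter threshold, 7 with a pseudocount of 1 and 14 with equal sums. In *tw18*/+ against wild type, the counts of 1 and 2 became 7 and 8 without a filter and 0 and 0 with an FPKM of at least 5, and the higher count was 0 with a pseudocount of 1 and 0 with the stricter threshold. The median log2 ratio of 0.92 was 0.75 with a pseudocount of 1, 0.97 after centering, 1.13 with equal sums, 0.87 without a filter, 0.79 with an FPKM of at least 5, 0.97 with the filter on the mean and 0.91 against *tw18*/+. The 5 adaptors and activators that were higher became 3 with a pseudocount of 1, 10 with equal sums and 2 with the stricter threshold. The 6 matrix ligands became 10 without a filter, 3 with an FPKM of at least 5 and 2 with the stricter threshold. With that threshold the 8 basement-membrane genes became 2 and the 4 dystrophin complex genes 1, and with equal sums 2 glycosylation genes were higher instead of 0. Against *tw18*/+ in place of wild type, *Itga2* (0.86) and *Itgb7* (1.23) changed direction. The share of *Itgb1* was 66.5%, 74.0% and 68.8% when members under an FPKM of 1 were left out. Low members rest on few fragments, and the cause of the other differences was not tested. Shares of all genes are given above for the main counts. For *tw18*/*tw18* against wild type they are also given without a filter and with the filter on the mean. The other settings have no such share here, so their counts describe the members and cannot be set against all genes.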

Other observations

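Dystroglycan binds laminin through sugar chains that a set of enzymes builds on it, and holds on to the cytoskeleton through the dystrophin complex. Of 19 listed glycosylation genes, 13 were in the table and 12 could be compared between *tw18*/*tw18* and wild type. Of these, 0 were higher and 0 lower by at least 1 log2 unit, and no test could be run. Their summed FPKM was 128 in wild type, 149.8 in *tw18*/+ and 149 in *tw18*/*tw18*. *Dpm2*, the most abundant, was at an FPKM of 42.9, 43.1 and 34.3, and *Large*, a glycosyltransferase that makes the laminin-binding sugar, had 4.30, 5.41 and 7.72. Of the dystrophin complex, 4 of 9 genes were higher in *tw18*/*tw18* and 0 lower, *Sgca* and *Sspn* being at 0 in all 3 libraries. For both lists, the shares of all genes were 15.1% higher and 6.94% lower. *Dtnb*, which encodes dystrobrevin beta, was the most abundant in wild type, with 24.9, 22.9 and 17.9. *Utrn*, which encodes utrophin, had 5.36, 6.08 and 11.6, and *Dtna*, which encodes dystrobrevin alpha and was the most abundant in *tw18*/*tw18*, had 8.92, 4.15 and 20.9.

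The 9 markers of primitive streak mesoderm, a tissue whose cells leave the basement membrane, summed to 218, 155 and 107. Of these, 0 were higher and 5 lower in *tw18*/*tw18*, against 15.1% and 6.94% of all genes. The 7 erythroid markers had 5 members at 0 in all 3 libraries, and their sum was at most 2.47.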
